A study of Caenorhabditis elegans with 21 samples.

Results

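The comparison described here sets daf-16(tm6659);daf-2(e1370) animals, which carry a mutation in the daf-16f isoform, against N2, the wild-type strain. It takes 6 of the 21 libraries of the series, chosen by genotype: 3 of tm6659 and 3 of N2. The series measured poly(A) RNA of whole Caenorhabditis elegans on day 1 of adulthood, from plates without males, in 7 genotypes. Beside the 2 genotypes above these are daf-2(e1370) with intact daf-16, and daf-2(e1370) with a null daf-16 mutation (mu86), a mutation of the a and f isoforms (mg54), or 1 of 2 independent daf-16a mutations (tm5030 and tm5032). Every genotype except N2 carries daf-2(e1370), so tm6659 against N2 compares daf-2 animals that lack daf-16f with animals that have both genes intact. The daf-16f mutation is represented by the single allele tm6659, and a difference that belongs to the allele's strain cannot be told apart from one that belongs to the isoform. All animals grew at 15 °C to the L4 larval stage and then at 20 °C for 20 to 24 hours.

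In the worm, insulin-like peptides act through the receptor DAF-2 and a chain of kinases that keep the FoxO transcription factor DAF-16 out of the nucleus. When daf-2 activity is low, DAF-16 enters the nucleus, raises genes of stress defence, immunity and fat and sugar metabolism, and is needed for the long life of daf-2 mutants. The daf-16 gene makes several isoforms from different promoters, among them daf-16a and daf-16f, which share the DNA-binding domain. The measurement addressed here is how much of the daf-2 state of gene expression is present in animals with daf-16a but without daf-16f.

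The 21 libraries held 29985446 to 46587902 fragments assigned to named loci, and the 6 of this comparison 32899082 to 46587902. A locus is the unit of the deposited table, and 1893 of the 12091 loci tested hold more than 1 protein-coding gene, so that a change there cannot be given to 1 of them; their genes are joined by a slash. Levels are in CPM, the fragments of a locus scaled to its library's total over the loci tested, times a normalization factor (TMM). They compare libraries for 1 gene, not genes with each other. A locus is called where edgeR's quasi-likelihood test gives a Benjamini-Hochberg adjusted p under 0.05 over all loci tested. The labels do not say that the 3 replicates of a genotype came from separate cultures, so p-values measure the spread between these samples. Since RNA came from whole animals, fewer cells of a type and less RNA per cell cannot be told apart.

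Markers of tissues and stages differed in part between tm6659 and N2, and also between replicates of a genotype. The mean log2 CPM of 6 tested embryo markers was 1.68, 2.07 and 1.68 in N2 replicates 1 to 3 and 0.893, 0.94 and 0.77 in tm6659, without overlap. The summed level of all 10 embryo loci, tested or not, was 168 to 198 and 135 to 159 CPM. Most of it came from pal-1 (means of 164 and 133 CPM), and hlh-27 and med-1 were at 0 in all 6 libraries. For 14 sperm markers the values were 2.23, 1.83 and 3.78 in N2 and 4.03, 3.31 and 4.7 in tm6659, with N2 replicate 3 above tm6659 replicate 2, and sums of 265 to 482 and 457 to 750 CPM. For 10 markers of body wall muscle they were 7.59, 7.29 and 8.14 in N2 and 8.37, 8.07 and 8.59 in tm6659, which also overlapped, with sums of 2127 to 4179 and 3778 to 5737 CPM. The 12 oocyte markers stood at 9.15 to 9.39 in N2 and 8.96 to 9.05 in tm6659, and the 10 intestine markers at 6.49 to 6.75 and 6.66 to 6.83. The 10 neuron markers were at 2.93, 2.55 and 3.14 in N2 and at 3.45, 3.24 and 3.55 in tm6659, without overlap, although their sums of 309 to 326 and 320 to 348 CPM did overlap. Hypodermis markers overlapped in their mean log2 CPM (3.08 to 3.59 and 3.25 to 3.64) but not in their sums (1335 to 2440 and 2512 to 3413 CPM), and so did markers of larval cuticle and molt (0.748 to 1.54 and 1.06 to 1.75, with sums of 44 to 53.2 and 59.5 to 64 CPM). Most of the hypodermis sums came from col-19 (means of 971 in N2 and 1356 CPM in tm6659) and bli-1/col-39/col-79/col-80 (581 and 1267 CPM). Most of the molt sums came from nas-37 (31.3 and 43.1 CPM). In both sets the other members moved in both directions. The 8 tested pharynx markers overlapped, at 0.602 to 2.16 and 1.23 to 1.81. Of the intestine markers 1 was called, ges-1, a gut esterase, at a log2 difference of 1.55. In addition, 1 hypodermis marker was called lower and 1 larval cuticle and molt marker higher. No sperm, body wall muscle, neuron, oocyte, embryo or pharynx marker was called. The other daf-2 genotypes shifted from N2 too by their medians, but not in every library. Sperm means, for example, were 3.71, 1.63 and 5.21 in tm5032, and embryo means were 0.922, 2.33 and 0.56 in mg54. Median log2 differences were 1.28 in tm6659 and 1.43 to 2.05 in the others for sperm, and 0.56 and 0.55 to 0.74 for muscle. They were 0.61 and 0.53 to 0.70 for neurons, and -0.42 and -0.62 to -0.31 for embryo. Pharynx markers were at -0.17 in tm6659, -0.37 in daf-2 and 0.68 to 1.00 in the rest. The part of these shifts in the results below was not tested.

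The targeted gene was lowest in its own mutant. The daf-16 locus (WBGene00000912, chromosome I, 10750498 to 10776703, plus strand, WBcel235) stood at 187, 192 and 182 CPM in N2 and at 49, 54 and 70.1 CPM in the tm6659 libraries. The groups did not overlap, and the log2 difference was -1.69 ± 0.12 (SE, n = 3 each, adjusted p = 1.48e-07, edgeR). In the other daf-2 genotypes the locus held 142 to 175 CPM (daf-2), 145 to 167 (mu86), 135 to 156 (tm5030), 157 to 181 (tm5032) and 94 to 94.4 (mg54), all above tm6659. The count covers the whole locus and cannot separate its isoforms. The receptor gene daf-2 was at 134, 146 and 129 CPM in N2 and 150, 174 and 153 in tm6659, and it was not called (log2 0.22 ± 0.11, adjusted p = 0.219, edgeR).

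In tm6659 against N2, 1446 of 12091 loci were called (12%), 1061 higher (8.78%) and 385 lower (3.18%). Of these, 805 (6.66%) differed by at least 2-fold, 691 of them higher and 114 lower. The higher loci ranged over small secreted proteins, lysosomal lipases, antioxidant enzymes, metallothionein and lysozymes, while many lower loci were abundant genes with small differences, among them chaperones and ribosomal proteins. The median log2 difference over all loci tested was 0.06. The 3 libraries of a genotype did not overlap with those of N2 at 5251 loci (43.4%). The balance of directions depended on the scaling: 73.4% of calls were higher with TMM factors, 62.8% (1037 against 614) with upper-quartile factors, and 53.3% (415 against 363) in the authors' FPKM, whose median over all loci was -0.32. The count fell to 912 without N2 replicate 1, to 781 without N2 replicate 2, and to 167 without the replicates numbered 1 of all 7 genotypes.

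**Figure D1:**
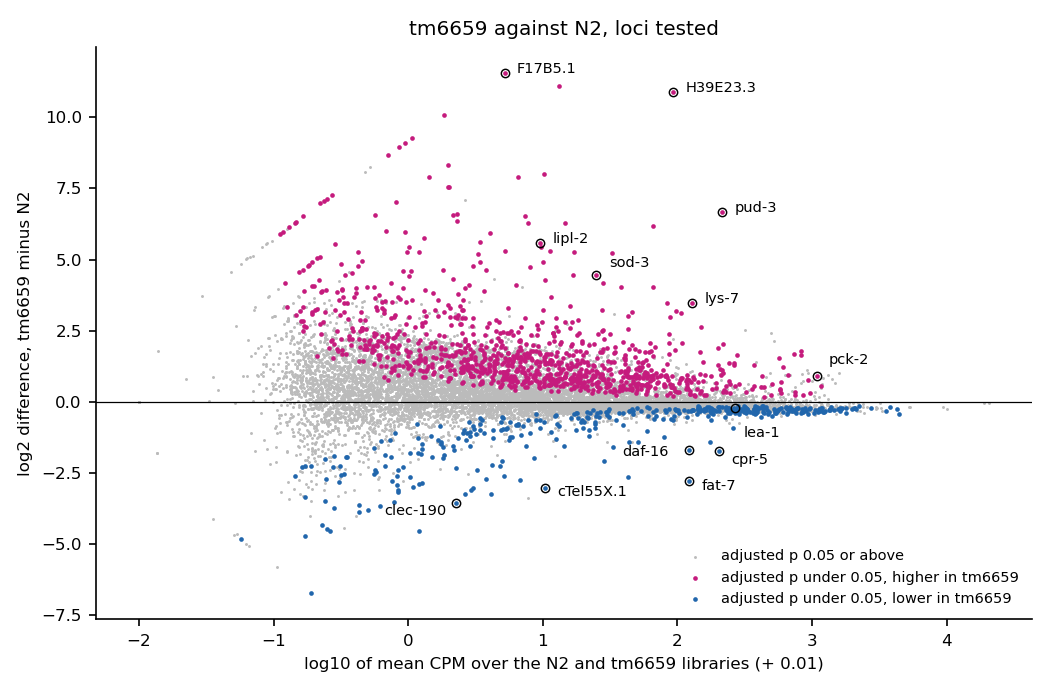
Each point is a locus. The horizontal axis is the log10 of its mean CPM over the 6 libraries (with 0.01 added), the vertical axis the log2 difference of tm6659 minus N2, and colour marks the 1061 loci called higher and the 385 called lower. The called loci above 0 reach log2 differences of 5 and more at low and middle levels, for example pud-3 at 6.67 and lipl-2 at 5.59, while many called loci below 0 lie at high levels and close to 0.

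Among single genes with a public symbol and a mean of at least 2 CPM, the first by fold was pud-3 (chromosome V, 2324634 to 2325152, minus strand), which encodes a small protein first found as more abundant in daf-2 mutants. It stood at 1.77, 5.47 and 5.47 CPM in N2 and at 356, 491 and 436 CPM in tm6659, a 102-fold difference (log2 6.67 ± 0.42, SE, n = 3 each, adjusted p = 8.54e-08, edgeR). The groups are far apart, and the daf-2 libraries at 314, 419 and 416 CPM lie in the tm6659 range. Its neighbour pud-4 rose from 0.7, 2.77 and 2.02 CPM to 109, 148 and 130 CPM.

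Among the lysosomal lipases, enzymes that free fatty acids from stored fat, 6 of 7 tested loci were called higher (85.7%, beside 8.78% of all loci tested) and 0 lower. lipl-2 was at 0.197, 0.318 and 0.648 CPM in N2 and at 17.2, 20.8 and 18.2 CPM in tm6659 (log2 5.59 ± 0.39, adjusted p = 1.58e-07, edgeR). lipl-1 was at 0.153, 0.0954 and 0.207 CPM in N2 and at 12.7, 14.9 and 16.1 CPM in tm6659 (log2 6.53). Both genes were near 0 in N2 and separated fully from it. Smaller rises came from lipl-3/srw-107 (log2 2.36), lipl-4 (0.92), ech-8/lipl-7 (0.63) and ZK6.6/lipl-5 (0.56). The call of lipl-4 was lost without N2 replicate 1 or 2 or tm6659 replicate 1 or 2, at adjusted p up to 0.0923 (edgeR). In the FPKM values with a pseudocount of 1, 2 of the 7 stayed called higher.

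Genes of defence against oxidants and metals held some of the clearest differences. sod-3, the mitochondrial manganese superoxide dismutase long used as a readout of DAF-16, stood at 1.97, 1.72 and 2.9 CPM in N2 and at 38.9, 45.4 and 59 CPM in tm6659 (log2 4.44 ± 0.42, adjusted p = 2.6e-06, edgeR). The daf-2 libraries, at 39.3, 34.4 and 54.9 CPM, overlap with tm6659, and the mu86 mean of 1.7 CPM lies at the level of N2. The metallothionein mtl-1 is counted at 2 loci; at the larger it went from 1.44, 1.56 and 1.35 CPM to 27.7, 45.4 and 22.7 CPM (log2 4.46 ± 0.53). ftn-1, a ferritin that stores iron, rose from 0.984, 0.922 and 1.17 CPM to 22.8, 25.1 and 11.7 CPM (log2 4.27). The catalase locus ctl-1/ctl-2 went from 43.4 to 50.7 CPM in N2 to 80.3 to 99.2 CPM, whereas ctl-3, another catalase, was at 5.91, 5.56 and 4.32 CPM against 4.48, 4.64 and 4.9 in N2 (adjusted p = 0.594, edgeR). Of 10 superoxide dismutase, catalase and peroxiredoxin loci 3 were called higher (30%, beside 8.78% of all loci tested) and 0 lower. The remaining call, C15F1.5/art-1/sod-1, was at log2 0.18, lost its call when any of the 6 libraries was left out (adjusted p up to 0.363, edgeR) and had the opposite sign in FPKM.

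Antimicrobial genes were called higher at 17 of 45 loci (37.8%, beside 8.78% of all loci tested) and lower at 0. The lysozyme lys-7 was at 15.7, 21.2 and 27 CPM in N2 and at 245, 262 and 204 CPM in tm6659 (11.1-fold). lys-8 and the saposin-like spp-5, both already abundant in N2, rose by 2.46-fold and 2.14-fold. C-type lectins, sugar-binding proteins of which many are secreted by the gut, moved both ways, with 21 of 98 loci called higher and 11 lower, or 7 and 13 in FPKM. Those shares of 21.4% and 11.2% stand beside 8.78% and 3.18% of all loci tested. The lectin median against N2 was 0.14 in tm6659 and 0.62 in mu86. Directly against mu86, tm6659 had 7 lectin loci higher and 21 lower. clec-50 rose from 116 to 148 CPM in N2 to 266 to 308 CPM in tm6659, while clec-10 fell from 11.3, 11.3 and 12.9 CPM to 1.42, 1.34 and 2.45 CPM (log2 -2.77 ± 0.29, adjusted p = 6.79e-06, edgeR). Of 23 loci of the pals family, named for a shared protein signature and known in part for responses to intracellular pathogens, 9 were called higher (39.1%) and 0 lower, led by pals-26 at log2 4.64.

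Detoxification enzymes were called mostly higher: 18 of 48 cytochrome P450 loci against 1 lower, 14 of 39 glutathione S-transferase loci against 1 lower, and 9 of 51 UDP-glucuronosyltransferase loci against 1 lower. Their shares called higher, 37.5%, 35.9% and 17.6%, stand beside 8.78% of all loci tested. In FPKM the first 2 groups had 10 against 1 and 8 against 1, while the glucuronosyltransferases turned to 4 higher against 6 lower. Medians of mu86 against N2 were also above 0, at 0.61 (P450s), 0.23 (glutathione S-transferases) and 0.72 (glucuronosyltransferases), beside 0.78, 0.91 and 0.37 in tm6659. Directly against mu86, tm6659 had 8 P450 loci higher and 2 lower, 8 and 1 glutathione S-transferases, and 3 and 8 glucuronosyltransferases. The P450 gene cyp-13A2 was the exception of its group, at 9.05, 5.76 and 7.65 CPM in N2 and 0.619, 0.708 and 1.05 CPM in tm6659 (log2 -3.24 ± 0.32, adjusted p = 4.08e-06, edgeR). gst-20 rose 3.04-fold and gst-39 rose 3-fold. Transthyretin-related genes, a nematode family of small secreted proteins, were called higher at 20 of 50 loci and lower at 0, led by ttr-26, which was at 0.634, 0.509 and 1.43 CPM in N2 and 38.2, 46 and 16.2 CPM in tm6659. That share of 40% stands beside 8.78% of all loci tested. The family's median against N2 was 0.71 in tm6659 and 0.58 in mu86. Directly against mu86, tm6659 had 13 of these loci higher and 0 lower.

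In central metabolism, a list of 20 loci held genes of the glyoxylate shunt, gluconeogenesis, and the metabolism of trehalose, glycogen, glycerol and alcohols. Of these 10 were called higher (50%, beside 8.78% of all loci tested) and 0 lower, or 3 and 2 in FPKM. pck-2, a phosphoenolpyruvate carboxykinase that drives glucose synthesis, stood at 692, 714 and 855 CPM in N2 and at 1448, 1332 and 1449 CPM in tm6659 (log2 0.90 ± 0.13, adjusted p = 0.000223, edgeR). sodh-2, an alcohol dehydrogenase, went from 3, 3.27 and 6.87 CPM to 72.5, 64.8 and 76.9 CPM. The call of icl-1, which encodes the glyoxylate cycle enzyme, was lost without N2 replicate 1, N2 replicate 2 or tm6659 replicate 1 (log2 1.63, adjusted p = 0.00866, up to 0.0589, edgeR). In beta-oxidation 17 of 61 loci were called higher (27.9%) and 1 lower, or 1 and 2 in FPKM. There acox-3, an acyl-CoA oxidase, went from 18.2 to 18.8 CPM in N2 to 45.9 to 53.8 CPM in tm6659. Glycolysis and citric acid cycle loci (9 higher, or 22%, and 1 lower of 41) differed by small amounts, and their median turned from 0.09 to -0.44 in FPKM.

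Fat desaturation went the other way at its best-known member. fat-7, a delta-9 desaturase that makes oleic acid, was at 224, 176 and 242 CPM in N2 and at 22.4, 35.7 and 34.3 CPM in tm6659, 6.94-fold lower (log2 -2.80 ± 0.28, adjusted p = 4.08e-06, edgeR). Every tm6659 library lay far below every N2 library, and the daf-2 libraries at 24.4, 28.8 and 33.4 CPM lay among them. The locus acdh-2/ins-13 fell from 60.2, 73.2 and 88.1 CPM to 13.8, 13.9 and 7.68 CPM. The cathepsin B-like protease cpr-5 fell from 321, 279 and 341 CPM to 85.7, 79.4 and 115 CPM.

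The other genes with the largest falls were clec-190 (log2 -3.55), cutl-18 (-3.05), dod-24 (-2.60), ugt-53 (-2.25), oac-20 (-2.22), plep-1 (-2.10) and the collagen col-135 (-2.09). vet-6, a gene named for very early embryonic transcription, was at 4, 6.96 and 3.4 CPM in N2 and at 0.435, 0.419 and 0.642 CPM in tm6659 (log2 -3.26). Its adjusted p of 0.044 rose to as much as 0.139 when any of the 6 libraries was left out (edgeR), and the embryo markers given above were lower in the same libraries. epg-2, an autophagy adaptor (log2 -1.99, adjusted p = 0.0304), lost its call without any tm6659 library or without N2 replicate 1 or 2, at adjusted p up to 0.156 (edgeR).

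**Figure D2:**
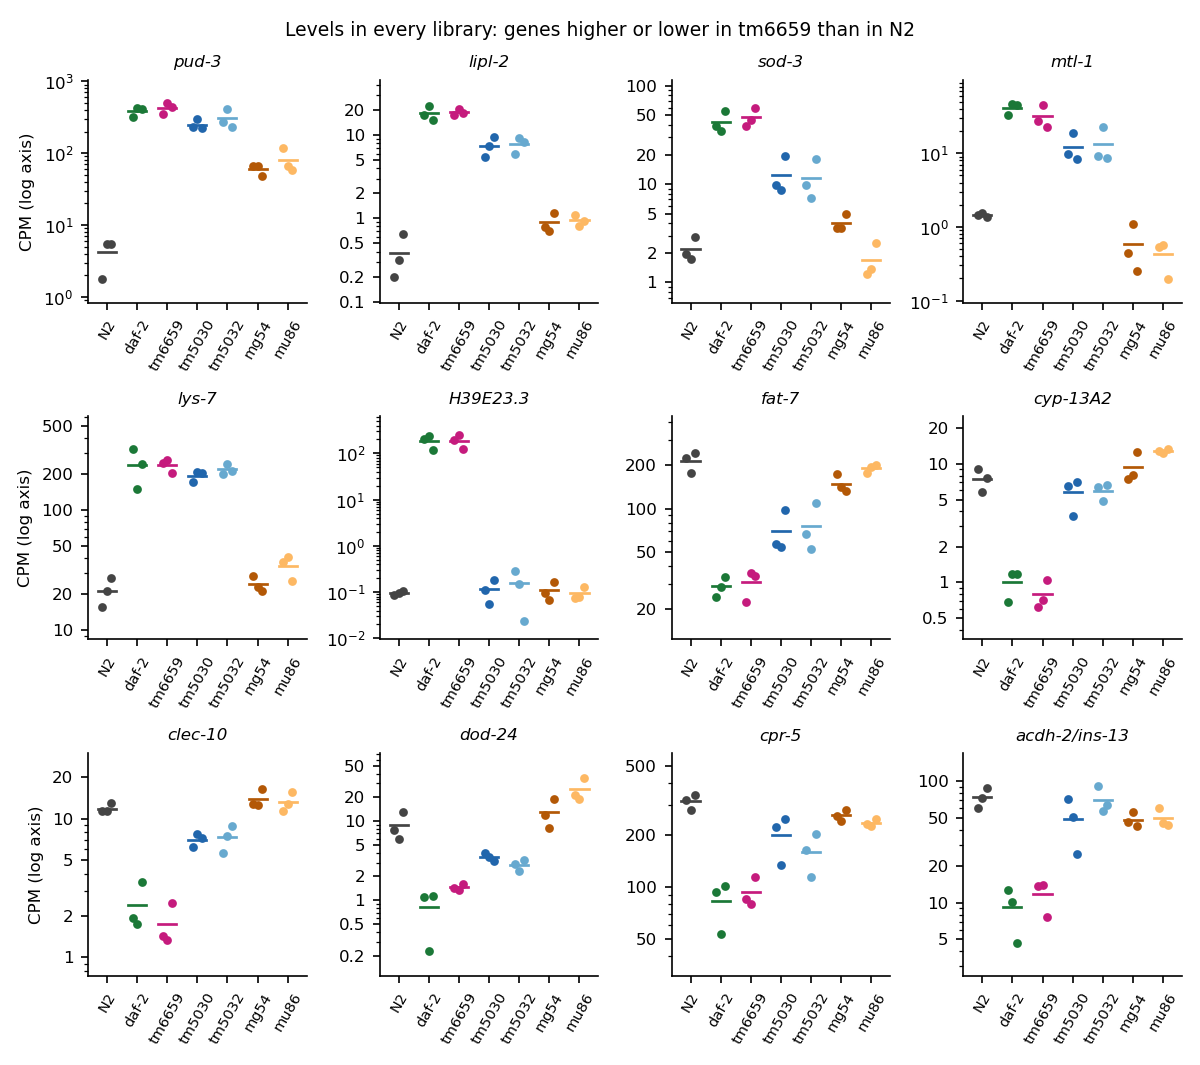
CPM on log axes in each of the 21 libraries for 12 loci, with points for libraries and bars for the mean of 3; mtl-1 is shown at its larger locus. In each panel the tm6659 points stand apart from the N2 points without overlap. H39E23.3 is at 124 to 247 CPM in tm6659 and below 1 CPM in N2, tm5030, tm5032, mg54 and mu86.

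Of the pathway's own parts, insulin-like peptide genes were called higher at 10 of 23 loci (43.5%, beside 8.78% of all loci tested). They were called lower at 1, acdh-2/ins-13 (4.35%, beside 3.18%). Their levels were low: ins-10 was at 0.0437, 0.0636 and 0.13 CPM in N2 and at 0.733, 1.76 and 0.584 CPM in tm6659 (log2 3.65 ± 0.58, adjusted p = 0.000468, edgeR), and ins-27 went from 0.35, 0.35 and 0.596 CPM to 2.09, 2.52 and 2.13 CPM. ins-7, a peptide known to be held down by DAF-16 in the gut, was not called (0.394, 0.89 and 1.43 CPM in N2, 1.4, 1.02 and 1.64 in tm6659). Among 19 loci of the kinase cascade and its partners 3 were called higher (15.8%, beside 8.78% of all loci tested) and 1, daf-16, lower (5.26%, beside 3.18%). The 3 were akt-2/ceh-89 (log2 1.76), which holds an Akt kinase, clec-86/ist-1 (1.38), which holds an insulin receptor substrate homologue, and pdk-1 (0.77), the kinase that acts on Akt.

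Lists of genes known as DAF-16 targets in other work gave 21 of 33 raised targets called higher and 0 lower, with a median log2 difference of 1.46 beside 0.06 for all loci tested, and 4 of 9 lowered targets called lower and 0 higher, with a median of -1.41. The shares of 63.6% and 44.4% stand beside 8.78% higher and 3.18% lower of all loci tested. In FPKM the counts were 14 higher and 4 lower. The raised targets included nnt-1, a transhydrogenase, at 9.73, 9.09 and 11.8 CPM in N2 and 56.4, 58.1 and 45.4 CPM in tm6659, and dod-3 (log2 5.22). The lowered ones were fat-7, dod-24, dod-23 and asp-17, of which asp-17 lost its call without N2 replicate 3, tm6659 replicate 2 or tm6659 replicate 3 (adjusted p up to 0.101, edgeR). The 12 raised targets not called were lea-1, sip-1, ctl-3, fat-5, ins-18, nhr-80, daf-15, hsp-16.2, hsp-16.41, hsp-70, spp-1/umps-1 and thn-1/thn-2. The heat shock genes varied within groups: hsp-16.41 was at 0.573, 7.44 and 0.0876 CPM in tm6659 and at 0.437, 3.4 and 1.94 in N2.

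Genes of protein synthesis and folding made up a part of the lower calls, with small differences. Of 47 chaperone loci 20 were called lower and 1 higher, of 79 cytosolic ribosomal protein loci 31 lower and 0 higher, and of 33 proteasome loci 8 lower and 0 higher, with medians of -0.23, -0.21 and -0.27. The shares called lower were 42.6%, 39.2% and 24.2%, beside 3.18% of all loci tested. In mu86 against N2 the medians were -0.20, -0.13 and -0.24. hsp-60, the mitochondrial chaperonin, was at 632, 612 and 612 CPM in N2 and 509, 478 and 525 CPM in tm6659 (log2 -0.30 ± 0.05, adjusted p = 0.00061, edgeR), and cct-1, a subunit of the cytosolic chaperonin, was at 574, 662 and 548 CPM against 383, 441 and 425 CPM. Groups did not overlap for either gene. These counts depended on the libraries: without the replicates numbered 1 of every genotype they were 0, 1 and 0 lower, and in FPKM 2, 0 and 0. The medians stayed below 0, at -0.32, -0.25 and -0.32 without those replicates, beside -0.01 over all loci tested. In FPKM with a pseudocount of 1 they were -0.78, -0.76 and -0.80, beside -0.32 over all loci tested. Vitellogenins, the yolk proteins, were not called at any of 5 loci, with a median of -0.20.

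The remaining families are read against 8.78% higher and 3.18% lower over all loci tested. Cuticle collagens, the structural proteins of the worm's skin, were called higher at 14 of 128 loci and lower at 2, with col-76 at 7.92 to 8.16 CPM in N2 and 15.8 to 19.8 CPM in tm6659, and col-135 at 36.9 to 58.5 and 10 to 11.9 CPM. Nuclear hormone receptors were called higher at 7 of 167 loci and lower at 2, and in FPKM at 0 and 5. F-box proteins, which select targets for degradation, had 18 of 181 higher and 5 lower, and neuropeptides 8 of 86 higher and 1 lower. Proteases had 11 of 43 higher and 3 lower, or 2 and 4 in FPKM, and cpr-5 was one of the lower loci. Of 10 small heat shock protein loci 2 were called higher, and of 18 desaturase and elongase loci 2 higher and 1 lower.

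**Figure D3:**
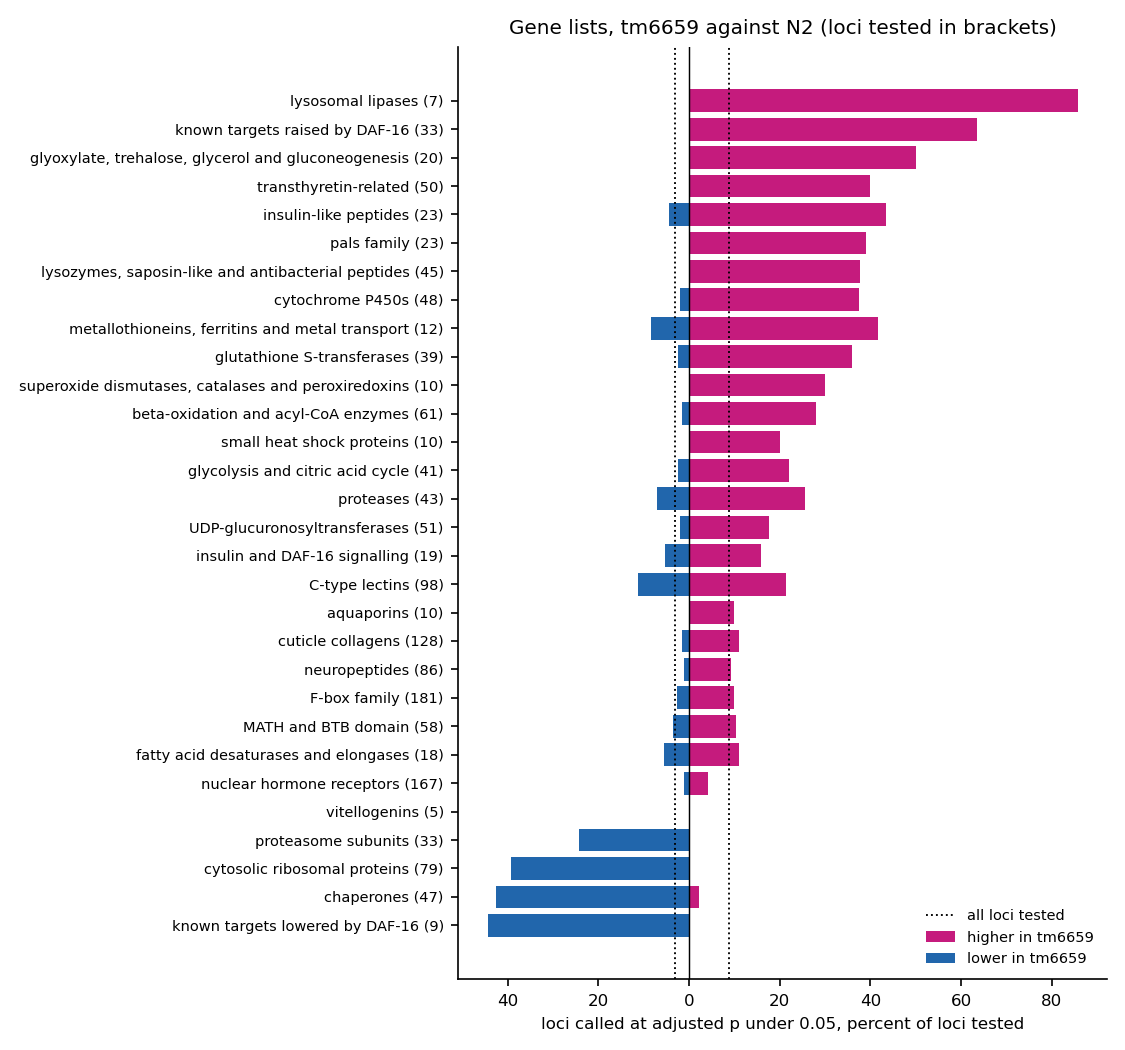
Bars give the percent of each list's tested loci called higher (to the right) and lower (to the left) in tm6659 than in N2, with the number tested in brackets; dotted lines mark 8.78% and 3.18%, the shares over all loci tested. Lysosomal lipases and known raised targets reach farthest to the right, and chaperones, ribosomal proteins and known lowered targets farthest to the left.

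A few genes close to silent in N2 were expressed in tm6659; they were picked after their values were seen. H39E23.3 (chromosome V, 14107811 to 14110051, plus strand) was at 0.0875, 0.0954 and 0.104 CPM in N2 and at 190, 247 and 124 CPM in tm6659, beside 207, 237 and 116 CPM in daf-2. In tm5030, tm5032, mg54 and mu86 its means were 0.117, 0.155, 0.11 and 0.0951 CPM, at the level of N2. F17B5.1 had 0 fragments in the 3 N2 libraries and 11.8, 9.49 and 9.84 CPM in tm6659, at least 403-fold higher when N2 is set at 3 fragments over the group. F56D6.9 had 1 fragment in N2 and 33.3, 32.7 and 13.4 CPM in tm6659, a ratio of 3154 with a 95% interval of 566 to 124428 that covers counting error alone. Unlike F17B5.1, which had means of 3.59 and 4.33 CPM in tm5030 and tm5032, F56D6.9 stayed at 0.201 and 0.102 CPM there.

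A list of loci that depend on daf-16 was drawn from daf-2 against mu86, a contrast that leaves out the N2 and tm6659 libraries. Those libraries still entered the filter, the scaling and the estimate of spread, which came from all 21 libraries. It holds 745 loci called higher in daf-2 (6.16%) and 499 called lower (4.13%). Of the 745, 522 were called higher in tm6659 than in N2 (70.1%, beside 8.78% of all loci tested) and 4 lower, and their median log2 difference was 1.18. The 3 tm6659 libraries had medians of 1.15, 1.22 and 1.03 over the mean of N2, beside 1.32, 1.31 and 1.23 in daf-2, whose values chose the list. In tm5030 they were 0.787, 0.654 and 0.883, in tm5032 0.8, 0.757 and 0.825, and in mg54 0.15, 0.0527 and 0.191. Each tm6659 library stood above every daf-16a library. Each also stood below every daf-2 library, the nearest at 1.22 beside 1.23. That order cannot be read as a difference, since the choice of the list favours high values in daf-2. The 499 loci lower in daf-2 had medians of -0.361, -0.383 and -0.254 in tm6659, of -0.44, -0.551 and -0.408 in daf-2 and of -0.224 to -0.037 over the 6 daf-16a libraries. Of them 169 were called lower in tm6659 than in N2 (33.9%, beside 3.18%) and 1 higher. All these medians share the N2 libraries as their zero. Without the replicates numbered 1, the medians on the same loci, where still tested, were 1.10 for the raised and -0.39 for the lowered. With the list itself drawn again from those fewer libraries, which changes its loci, they were 2.41 and -1.04.

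**Figure D4:**
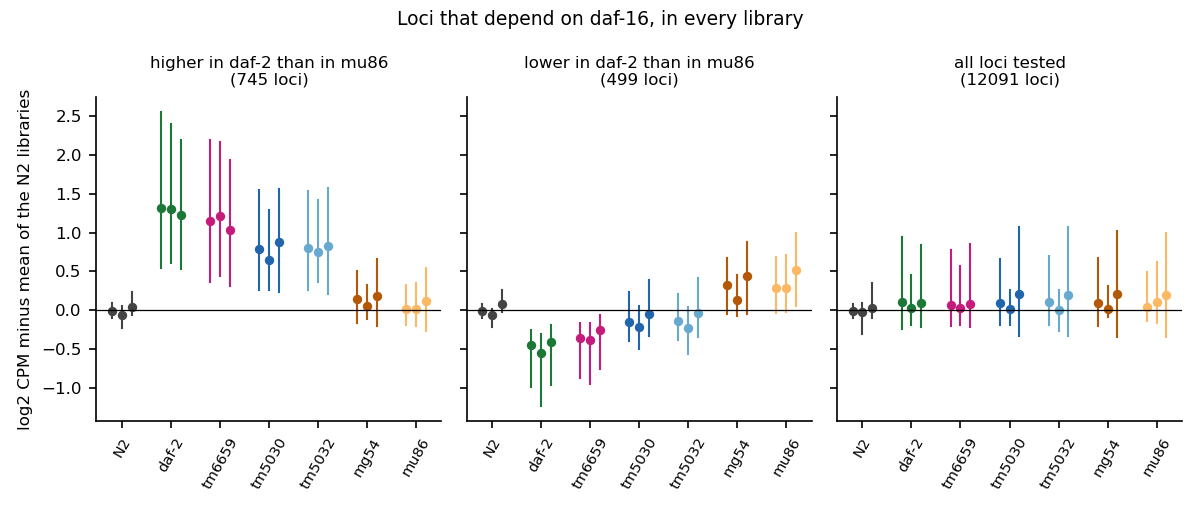
Points are medians and lines quartiles of log2 CPM minus the N2 mean in each of the 21 libraries, over 745 loci higher in daf-2 than in mu86, 499 loci lower in daf-2, and all 12091 loci tested. In the first panel tm6659 (1.03 to 1.22) lies above the daf-16a mutants (0.654 to 0.883) and below daf-2 (1.23 to 1.32), whose libraries chose the loci. In the last panel all genotypes lie near 0.

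Strongly raised genes of this list differed in how close tm6659 came to daf-2. lys-7 was at 204 to 262 CPM in tm6659 and 149 to 323 CPM in daf-2, and pals-26 at 5.67 to 9.01 CPM beside 7.47 to 11.9 CPM. cest-1.1, a carboxylesterase, had 2 fragments in N2, 2.96, 5.4 and 3.45 CPM in tm6659 (a ratio to N2 of 226, counting interval 62.2 to 1871) and 8.31, 19.4 and 13 CPM in daf-2. The last 2 groups do not overlap, and the log2 difference of -1.78 had an adjusted p of 0.344 without and 0.00191 with a replicate block (edgeR). Among loci held low in daf-2, gpdh-1 and irg-5 were at 1.49 to 1.93 CPM and 0.115 to 0.629 CPM in tm6659, means of 16 and 3.8 CPM in mu86, and were not called against N2 (adjusted p = 0.0711 and 0.066, edgeR).

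Tested directly against daf-2, the tm6659 libraries differed at 21 of 12091 loci (0.174%), 5 higher (0.0414%) and 16 lower (0.132%). With the replicate number as a block the count was 85, and at an unadjusted p under 0.05 it was 409. Leaving out daf-2 replicate 2 or tm6659 replicate 2 gave 13 calls and leaving out tm6659 replicate 1 gave 10. Values of the other genotypes against N2, which share the N2 libraries, stand beside this. daf-2 had 2018 calls against N2 (16.7%), 1312 higher (10.9%) and 706 lower (5.84%). tm5030 had 1296 (10.7%), 835 higher (6.91%) and 461 lower (3.81%), and tm5032 had 1255 (10.4%), 846 higher (7%) and 409 lower (3.38%). The null mutant mu86 had 184 (1.52%), 163 higher (1.35%) and 21 lower (0.174%), and in mg54 0.984% of loci were called, 101 higher (0.835%) and 18 lower (0.149%). The tm6659 and daf-2 libraries did not overlap at 1176 loci (9.73%). The 21 loci fell into 3 kinds by their levels, a sorting made after the values were seen.

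The first kind was high in daf-2 and near N2 in tm6659. lea-1 (chromosome V), which encodes a late embryogenesis abundant protein of the kind that protects against drying, stood at 1881, 2110 and 1866 CPM in daf-2, 236, 249 and 255 CPM in tm6659 and 262, 295 and 309 CPM in N2. The tm6659 value was 7.92-fold below daf-2 (log2 -2.99 ± 0.13, adjusted p = 4.5e-10, edgeR), and the call held without any 1 of the 6 libraries. Both daf-16a mutants kept the daf-2 level (1723 to 2283 CPM in tm5030, 1657 to 2424 in tm5032), whereas mg54 and mu86 were at 210 to 236 CPM. Against the mean of the daf-16a mutants tm6659 lay lower by a log2 difference of -3.02 ± 0.12 (adjusted p = 7.44e-11, edgeR).

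sip-1, a small heat shock protein, followed the same order at 920, 937 and 905 CPM in daf-2, 350, 452 and 352 CPM in tm6659 and 428, 558 and 418 CPM in N2 (tm6659 against daf-2, log2 -1.26 ± 0.18, adjusted p = 0.00238, edgeR). F55G1.7 was at 8.81, 12.4 and 10 CPM in daf-2, 2.34, 2.36 and 2.07 in tm6659 and 2.69, 2.8 and 3.37 in N2. rnh-1.3, a ribonuclease H, was at 14.9, 16.8 and 14.6 CPM in daf-2, 4.22, 5.29 and 4.88 in tm6659 and 4.53, 3.82 and 3.76 in N2. In these 3 genes no tm6659 library reached the lowest daf-2 library. The signalling regulator rgs-10 (log2 -1.50) and F40H3.1 (-0.92) showed the same, and all of them had calls that held without any 1 library.

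For icmt-1, a methyltransferase for prenylated proteins, daf-2 held 26.4, 22.9 and 25.8 CPM, tm6659 0.894, 0.76 and 1.87 CPM, and N2 0.35, 0.191 and 1.06 CPM (log2 -4.42 ± 0.71 against daf-2, adjusted p = 0.00964, edgeR). Its call was lost without tm6659 replicate 1 or 2 (adjusted p up to 0.129). Smaller and less stable differences of this kind came from pqn-73 (log2 -4.43, at most 1.54 CPM), which was also below N2, and from mtch-1 (-0.53), got-2.2 (-0.43), C17F4.7 (-0.42) and ZK632.10/ZK632.9/lin-52 (-0.41). Calls of mtch-1 and C17F4.7 were lost without any 1 of the 6 libraries, that of got-2.2 without any except daf-2 replicate 3, that of the lin-52 locus without daf-2 replicate 2 or tm6659 replicate 1 or 3, and that of pqn-73 without tm6659 replicate 1 or 2 (adjusted p up to 0.151, 0.179, 0.222, 0.109 and 0.0556 in that order, edgeR). dnbp-1 (-0.54) was high in daf-2 alone, with means of 57 and 57.4 CPM in the daf-16a mutants and 58.1 to 65 CPM in tm6659; its call was lost without tm6659 replicate 1 (adjusted p = 0.0736, edgeR). ctl-3 stood at 11.7, 13.4 and 10.3 CPM in daf-2 against 5.91, 5.56 and 4.32 in tm6659, with an adjusted p of 0.0546, or 0.00238 with the replicate block (edgeR).

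The second kind set tm6659 apart from N2 and daf-2 alike. It includes daf-16 itself and a pair of loci near the right end of the X chromosome. cTel55X.1 (X, 17714961 to 17718726, plus strand) was at 1.1, 2.73 and 2.95 CPM in tm6659, 19.3, 17.8 and 18.2 CPM in N2 and 19.9 to 25.3 CPM over the other 5 genotypes (tm6659 against N2, log2 -3.03 ± 0.24, adjusted p = 4.98e-07, edgeR). cgt-2 (X, 17695232 to 17701743, plus strand), a ceramide glucosyltransferase, was at 16.9, 15.5 and 19.4 CPM in tm6659 beside 9.25, 8.71 and 8.17 CPM in N2, and 8.92 to 9.46 CPM in daf-2. The call of cgt-2 against daf-2 (log2 0.91, adjusted p = 0.0114) was lost without daf-2 replicate 1 or 2 or tm6659 replicate 1 or 3 (up to 0.0688, edgeR). pgph-2, a phosphoglycolate phosphatase homologue, was lower in tm6659 (13.7, 15.7 and 11.6 CPM) than in N2 (26, 29.1 and 23.5 CPM) and daf-2 (34.5, 51.8 and 36.5 CPM). T10D4.6 was highest in tm6659, at 35.5 to 40.9 CPM against 20.3 to 21.9 in daf-2 (log2 0.86) and 25.3 to 30.8 in N2, from which it was not called (adjusted p = 0.0547, edgeR). Against daf-2 it lost its call without any 1 of the 6 libraries (adjusted p up to 0.203, edgeR).

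The third kind was low in daf-2 and higher in tm6659. ugt-64, a glucuronosyltransferase, was at 26.5, 21.5 and 19.2 CPM in daf-2, 74, 76.4 and 60.1 CPM in tm6659 and 53.3, 51.2 and 46.2 CPM in N2 (tm6659 against daf-2, log2 1.65 ± 0.20, adjusted p = 0.000576, edgeR). F22F1.2 (log2 2.05) and Y69A2AR.12 (2.17) were below 1 CPM in tm6659 and daf-2 alike. Their calls were lost without daf-2 replicate 1 or 2 or tm6659 replicate 1 or 2, and for Y69A2AR.12 also without daf-2 replicate 3 (adjusted p up to 0.14 and 0.329, edgeR). Y69A2AR.12 was still lower in tm6659 than in N2 (log2 -2.65, adjusted p = 2.7e-05, edgeR). In FPKM plus 1 its log2 difference from daf-2 was 0.14.

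**Figure D5:**
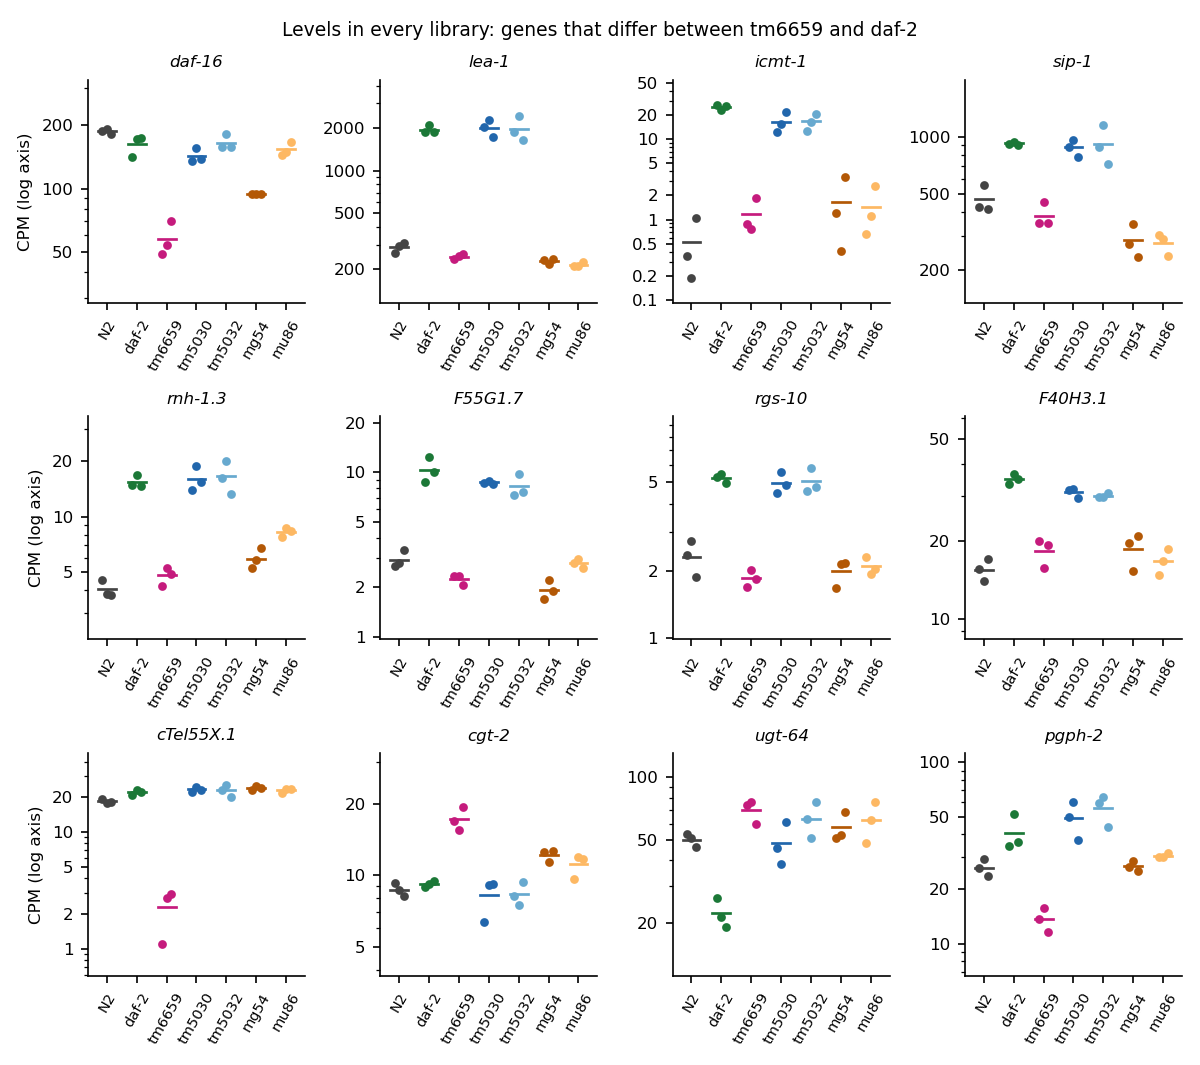
CPM on log axes in each of the 21 libraries for 12 loci called between tm6659 and daf-2, points being libraries and bars the mean of 3. For lea-1, icmt-1, sip-1, rnh-1.3, F55G1.7, rgs-10 and F40H3.1 the tm6659 points lie below all points of daf-2, tm5030 and tm5032; in the panels of daf-16 and cTel55X.1 tm6659 is the lowest genotype, and in that of cgt-2 the highest.

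For most other genes named above no difference between tm6659 and daf-2 was detected, and the intervals of the differences show what could have been missed. The approximate 95% interval of the log2 difference ran from -0.58 to 0.62 for lipl-2, from -0.55 to 0.87 for sod-3 and from -0.42 to 0.61 for fat-7. These intervals use a normal quantile and are somewhat too narrow. By list, read against 0.174% of all loci, calls fell at 2 of 33 known raised targets (lea-1 and sip-1, both lower), 1 of 10 small heat shock protein loci (sip-1 again), 1 of 51 UDP-glucuronosyltransferase loci (ugt-64, higher) and 1 of 19 signalling loci (daf-16, lower). At that share a list without a call says little about its members.

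In tm6659 against mu86, the null mutant, 873 loci were called (7.22%), 518 higher (4.28%) and 355 lower (2.94%), and 1854 with the replicate block. The groups did not overlap at 2905 loci (24%). Without tm6659 replicate 2 the count was 577. The largest rises by the naming rule included mtl-1 (27.7, 45.4 and 22.7 CPM against a mean of 0.434 in mu86), sdz-24 (13.2, 15.1 and 29 CPM against 0.193) and dlhd-1 (log2 5.72). The largest falls included dod-22 (log2 -5.21), the aspartic protease asp-17 (-4.97), dod-24 (-4.12) and cyp-13A2 (-4.03). For dod-22, asp-17 and dod-24 every mu86 library also lay above every N2 library; asp-17, for example, was at 12.3, 17.4 and 29 CPM in mu86 and at 1.68, 1.3 and 4.15 CPM in N2. Vitellogenins, not called against N2, were lower in tm6659 than in mu86 at 4 of 5 loci; vit-1 was at 4641, 5129 and 4846 CPM in tm6659 and at 8231, 8547 and 8558 CPM in mu86 (log2 -0.79 ± 0.08, adjusted p = 1.11e-05, edgeR). Ribosomal protein and proteasome loci had 0 calls in either direction here.

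In tm6659 against the mean of tm5030 and tm5032, 295 loci were called (2.44%), 153 higher (1.27%) and 142 lower (1.17%), and 950 with the replicate block. Leaving out tm6659 replicate 1, 2 or 3 gave 129, 137 and 180 calls. Higher in tm6659 were lipl-1 (log2 2.81, with means of 2.67 CPM in tm5030 and 1.62 in tm5032), far-3, a fatty acid and retinol binding protein (50.4 to 108 CPM against means of 8.87 and 15.8), the amino acid transporter slc-36.5 (log2 2.49), sodh-2 (2.03) and sodh-1 (adjusted p = 0.0233, edgeR). The last lost its call without any tm6659 library, tm5030 replicate 1 or 2, or tm5032 replicate 1 (adjusted p up to 0.107, edgeR). sod-3 was higher by log2 1.98 (adjusted p = 0.0012), and ins-10 by 3.31. Lower in tm6659 were lea-1 and icmt-1, given above, and cyp-13A2 (log2 -2.88), oac-20 (-2.32) and the chemoreceptor srr-4 (-2.22). Of the 745 loci raised in daf-2, 100 were higher and 26 lower in tm6659 than in the daf-16a mutants, and of the 499 lowered loci 10 were higher and 75 lower.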

How the data were processed

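The submitters' processing notes name CASAVA 1.8.2, TopHat2 2.0.9 and Cufflinks 2.1.1 without saying which step each did; the genome build was not given in the sources used here. Deposited were the authors' expected counts (fragments estimated per locus, not normalized, 86.3% of values whole within 1e-09) and the authors' FPKM (fragments scaled by the authors for locus length and library size) for 33886 loci. Table lines that name no locus (3) and 300 loci without a gene name (1.06% to 1.54% of fragments) were left out. Of 40230 gene names, 39630 (98.5%) matched Ensembl release 115 (WBcel235) or RefSeq tables, which gave gene types; coordinates are Ensembl's.

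Expected counts were rounded to whole numbers and tested with edgeR 4.0.16 (R 4.3.3): TMM factors (0.956 to 1.04), filterByExpr (12091 loci kept), and a quasi-likelihood model with a term per genotype over the 21 libraries. The common biological coefficient of variation was 0.346. The procedure was tested on simulated counts. Alternatives used DESeq2 1.42.0, limma 3.58.1 (voom, and log2 of FPKM plus 1 or 0.1), other factors and filters, a replicate block, and fewer libraries. Intervals of fragment ratios and the floor of 3 fragments cover counting error only, and standard errors do not cover errors in assigning reads to genes.

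All genotypes use replicate numbers 1 to 3, whose meaning the labels do not state. Deviations of same-numbered tm6659 and daf-2 libraries from their group means correlated at 0.351, 0.604 and 0.616, those of tm6659 and mu86 at 0.11, 0.157 and 0.494, and those of tm6659 with the daf-16a mutants at 0.303 to 0.626. All of these pass a limit of 0.1, but with mu86 only 4 of 6 libraries correlated best with their own number. With N2 they correlated at 0.0987, 0.425 and 0.398, under the limit of 0.1 for number 1, although 6 of 6 libraries correlated best with their own number. Whether the numbers mark pairs is not known. Calls, standard errors and intervals come from the model without a block, except where the block is named.

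Genes named are daf-16 and daf-2, the 12 largest called changes each way against N2 and 5 each way in the other direct comparisons (a public symbol, 1 gene, a mean of at least 2 CPM, no overlap of replicates), the 8 largest each way of daf-2 against mu86, up to 4 called members a list, and all known DAF-16 targets; others were added after their values were seen. Members and lists were chosen with earlier results of these data known. No sequence is shown.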

Additional observations from a re-analysis of the deposited data

How the results depend on the processing

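Calls in tm6659 against N2 numbered 1446; 778 and 779 were made from FPKM plus 1 and plus 0.1, 4991 with the replicate block, and 167 to 1887 when libraries were left out. The block is a shared number and no known pairing in any comparison, although 6 of 6 N2 and tm6659 libraries correlated best with their own number. DESeq2 called 2118 and the other alternatives 1245 to 2000. In tm6659 against daf-2 (21 calls), DESeq2 gave 59, FPKM 7 and 7, a minimum of 2 CPM 32, the groups alone 11, the block 85, upper-quartile factors 32, and leaving out libraries 4 to 19. In tm6659 against mu86 (873), the block gave 1854 and leaving out libraries 149 to 765. In tm6659 against the mean of tm5030 and tm5032 (295), DESeq2 gave 573, the groups alone 109, the block 950, and leaving out libraries 17 to 321.

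The median of the loci raised in daf-2 over mu86, 1.18 with the list drawn anew each time, was 1.06 (DESeq2), 1.45 and 0.99 (FPKM plus 0.1 and plus 1), 0.84 (minimum of 2 CPM), 1.40 (no filter), 0.65 (block) and 1.5 to 2.41 without replicates 1, 2 or 3. That of the lowered loci, -0.34, was -0.89 and -0.63 (FPKM), -0.25 (minimum of 2 CPM), -0.21 (block), -0.25 (upper-quartile factors) and -1.04 to -0.39 without replicates. These medians belong to different loci in each setting. On the first list of raised loci, where still tested, the median was 1.16 (block), 0.57 and 0.40 (FPKM plus 0.1 and plus 1) and 1.04 to 1.26 without replicates. On the first list of lowered loci it was -0.34, -0.85, -0.74, and -0.39 to -0.32 in the same order.

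Signs turned at 6 named loci, all in FPKM (plus 1, plus 0.1): coq-4/pgk-1 (-0.19, -0.20), aco-2 (-0.21, -0.21), aldo-2/mig-21 (-0.19, -0.19), fat-2 (-0.08, -0.08), nhr-101/nhr-68/srx-87 (-0.46, -0.47) and C15F1.5/art-1/sod-1 (-0.34, -0.34). The causes were not tested. The block changed no call of a named gene from called to not called. Loci of few fragments limit what could be detected, and groups of 3 libraries were not searched for outliers.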
